A study of Sus scrofa with 3 samples.

Results

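Translation factors and tRNA synthetases are the genes whose products start, extend and supply protein synthesis on the ribosome. They were taken as the probe sets with a single gene symbol that begins with EIF1 to EIF6, EEF1 or EEF2, or names a release factor or an aminoacyl-tRNA synthetase, leaving out EIF1AY and EIF2AK2. The rule used symbols and no measured value. It took 91 of 23935 probe sets on a porcine Affymetrix array, and these covered 59 of 6765 singly named genes. By role, 30 genes serve initiation, 5 elongation and 20 tRNA charging, and 4 are repressors, a modifying enzyme or an exon junction factor.

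The samples are lung tissue from minipigs, pigs of small breeds kept for surgical research. The operated lung is the left lung of a minipig with ischemia-reperfusion, in which the left pulmonary artery was occluded and released with the bronchus left alone, so that the lung stayed ventilated. The non-operated lung is that of the right side after the same surgery, and the sham group is lung from a minipig given a sham operation. All animals were kept free of specific pathogens. The sources used here do not state strain, age, sex or the times of occlusion and reperfusion, or if the operated and non-operated lungs were of the same animal. With 1 array in each group, the differences below have no replicate check and no p-value.

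In initiation, the factor eIF2 brings the starter tRNA to the small ribosomal subunit, eIF3 holds that complex together, and eIF4E, eIF4G and eIF4A load it onto the cap of the mRNA. In elongation, eEF1A delivers each charged tRNA, and a complex of eEF1B subunits recharges eEF1A with GTP. Aminoacyl-tRNA synthetases join amino acids to their tRNAs, and several of the cytosolic ones are bound in a multisynthetase complex. Synthesis of these factors is high in growing and dividing cells, and phosphorylation of eIF2 by stress kinases lowers initiation while it raises translation of the transcription factor ATF4.

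Values are log2 MAS5 signals as deposited, and a ratio is a difference of log2 signals, so that -1 is a halving. The floor was each array's median, a log2 signal of 7.31 for the operated lung, 7.31 for the non-operated lung and 7.33 for sham. A comparison counts the genes that exceed the floor on 1 or both of its arrays, with any dimmer value raised to the floor. Of the 59 genes, 56 lay above the floor on all 3 arrays, 1 on 1 array and 2 on none. The probe set with the highest mean signal stood for each gene. Probe sets that read 1 gene differed in their ratios with a pooled SD of 0.36 over 17 of the translation genes on the log2 scale for operated over sham, and of 0.38 over 18 genes for non-operated over sham. This spread says nothing of animals, since those probe sets share their arrays.

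Lung tissue was checked by its markers. SFTPC, the surfactant protein C gene of alveolar type 2 cells, had log2 signals of 14.52 in the operated lung, 14.56 in the non-operated lung and 14.44 in sham, near the highest signal on each array. Of 5 measured type 2 markers, 2 were at least 2-fold higher than sham in the operated lung and 0 in the non-operated lung. In the operated and non-operated lungs SFTPB had ratios of 1.23 and 0.11, SLC34A2 of 1.29 and 0.95 and SFTPD of 0.67 and 0.77. SFTPC had 0.08 and 0.12, and SFTPA1 had 0.10 and -0.16, below sham in the non-operated lung. The summed linear signals of the 5 were 46606 in the operated lung, 43816 in the non-operated lung and 35609 in sham. Over all counted named genes, 8.65% were at least 2-fold higher and 8.79% lower than sham in the operated lung. In the non-operated lung these shares were 8.96% and 8.55%. Markers of dividing and lymphoid cells differed between the arrays. Of 8 measured genes of dividing cells, 8 were at least 2-fold lower than sham in the operated lung and 8 in the non-operated lung, and their summed linear signals were 3821 in the operated lung, 4467 in the non-operated lung and 21962 in sham. Of 4 measured B and plasma cell markers, 4 were at least 2-fold lower in either lung, with sums of 1667, 1483 and 8601 in that order of arrays, and CD79B and SPIB lay below the floor in both lungs. Of 6 T cell markers, 4 were at least 2-fold lower in either lung and all 6 lay below sham, with sums of 2109.6, 2214 and 4956. Endothelial, alveolar type 1 and macrophage markers lay to the other side, with 5 of 5, 3 of 5 and 3 of 3 counted genes at least 2-fold higher in the operated lung and 4 of 5, 4 of 5 and 3 of 4 in the non-operated lung. Summed linear signals in the operated, non-operated and sham lungs were 12793, 13349.6 and 5116 for endothelium, 28979, 29055 and 11072 for type 1 cells, and 15500.1, 14896 and 3337 for macrophages. The part of these markers in the results below was not tested. In tissue RNA, fewer cells of a type and less RNA per cell cannot be told apart.

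**Figure D1:**
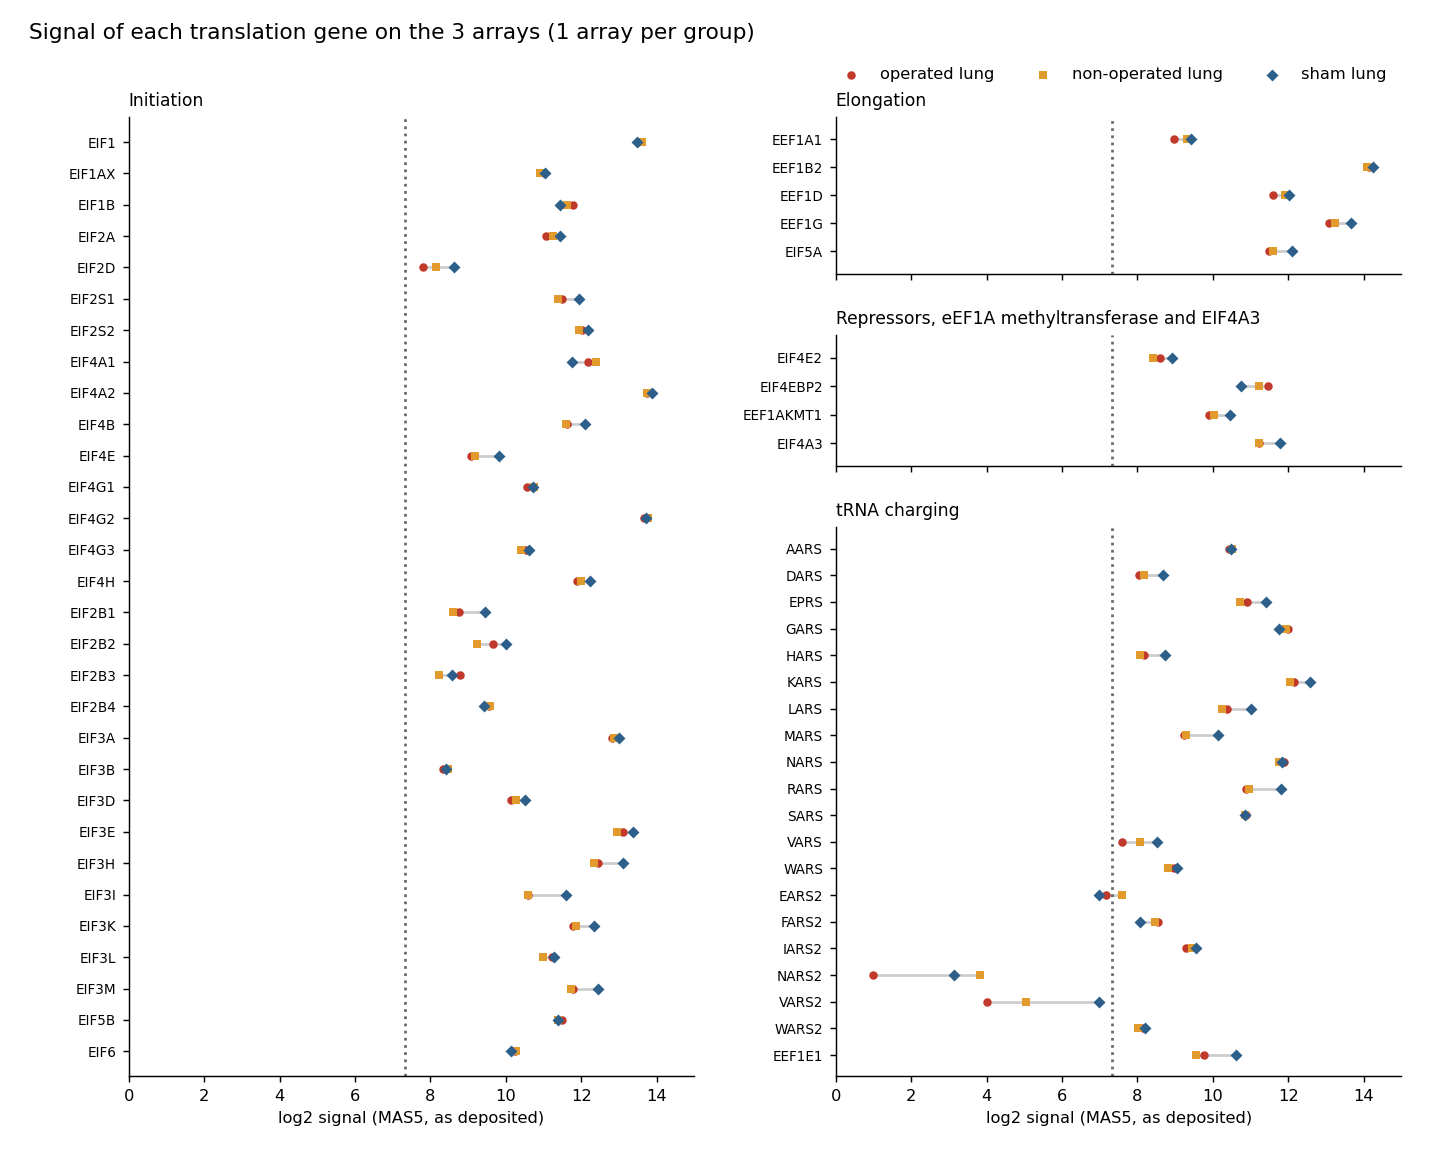
Log2 signal of the representative probe set of each of the 59 translation genes (horizontal axis) on the operated (circle), non-operated (square) and sham (diamond) array, with 1 array per group and the floor as a dotted line. EIF3I sits at 10.58, 10.59 and 11.61, and NARS2 and VARS2 lie below the floor on all 3 arrays.

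Against sham, most translation genes had slightly lower signals in the operated lung, and few had higher ones. The median log2 ratio over 56 counted genes was -0.32, a 1.25-fold lower signal, where the median over all 5097 counted named genes was -0.11. Of the 56 genes, 44 lay below 0, which is 78.6%, against 57.7% of all counted genes. After the median ratio of all counted genes was subtracted, which puts the median of all genes at 0, 36 of 56 lay below 0 and the median was -0.21. At the 2-fold threshold 1 gene was lower, against 8.79% of all genes, and 0 were higher, against 8.65%. At 1.5-fold, 13 genes or 23.2% were lower, which is near the 21.7% of all genes, and 1 gene or 1.79% was higher, against 16.7% of all genes. The translation genes were also less spread than all genes, with an interquartile range of log2 ratios of 0.52 against 0.86.

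The non-operated lung gave similar figures against the same sham array, which both comparisons share. The median log2 ratio over 57 counted genes was -0.26, where it was -0.10 over all 5113 counted named genes. Of the 57 genes, 42 lay below 0, against 56.6% of all counted genes, and 41 did so with the median of all genes at 0, where their median was -0.15. At 2-fold, 2 genes were lower, against 8.55% of all genes, and 0 were higher, against 8.96%. At 1.5-fold, 12 genes or 21.1% were lower, against 21.4% of all genes, and 1 gene or 1.75% was higher, against 17.5%.

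**Figure D2:**
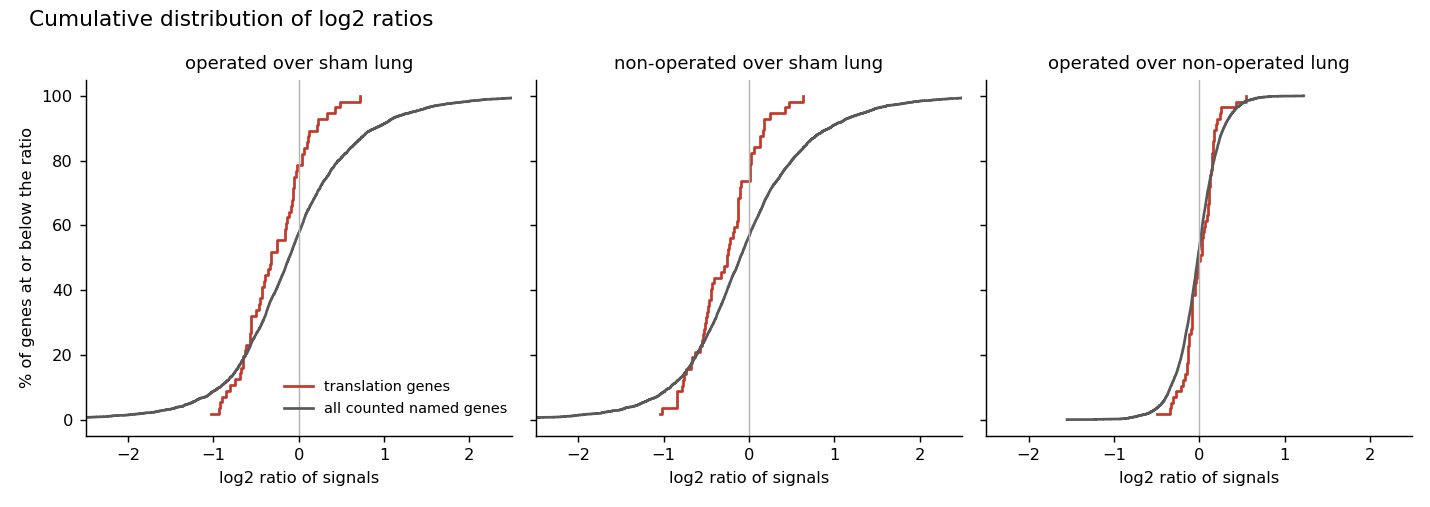
Share of genes (vertical axis, %) at or below each log2 ratio (horizontal axis) for the translation genes and for all counted named genes in the 3 comparisons, 1 array per group; genes beyond 2.5 in either direction are not drawn. Against sham the curve of the translation genes ends at 0.72 in the operated lung and at 0.63 in the non-operated lung, while that of all genes runs on beyond 2.

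By role, the medians for operated over sham were -0.16 in initiation, -0.44 in elongation and -0.41 in tRNA charging. For non-operated over sham they were -0.25, -0.15 and -0.35. Elongation was thus the lowest of these roles in the operated lung and the highest in the non-operated lung. This order depended on the processing. With no floor, tRNA charging was lower than elongation in the operated lung, at -0.45 against -0.44, and with averages over each gene's probe sets it was above elongation in the non-operated lung, at -0.18 against -0.19. In each role the genes ranged widely, from -1.03 to 0.42 in initiation, from -0.61 to -0.12 in elongation and from -0.94 to 0.48 in tRNA charging for operated over sham.

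**Figure D3:**
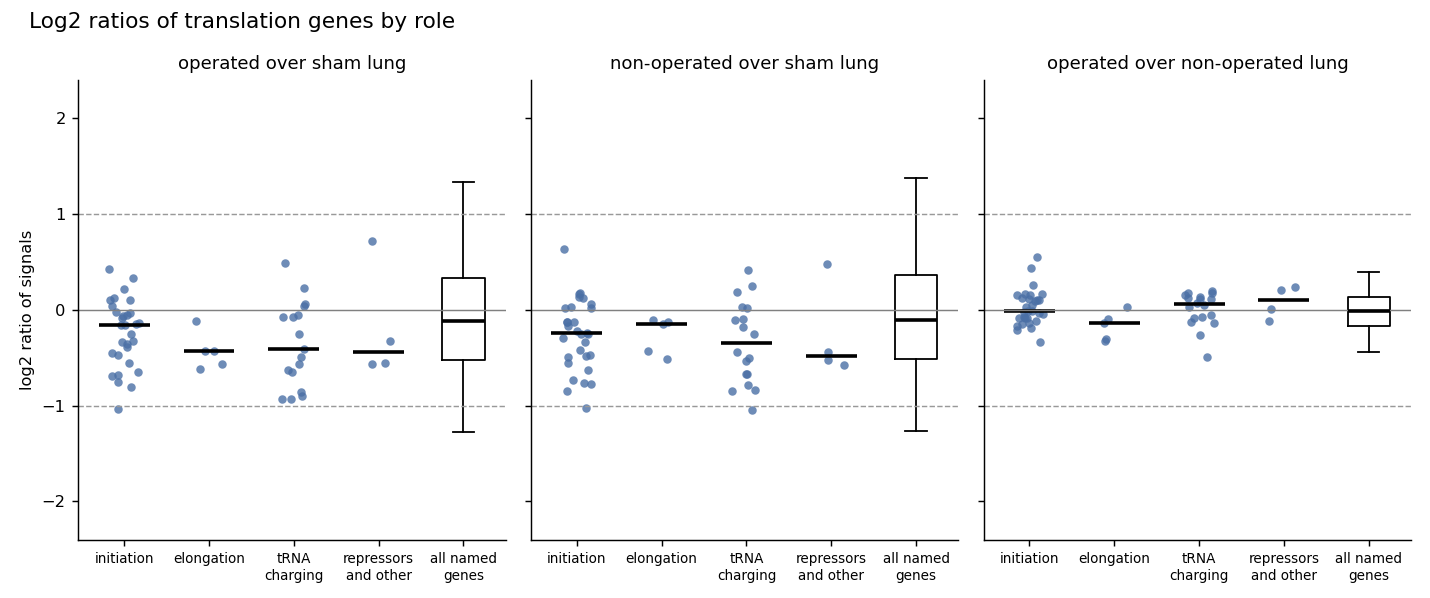
Log2 ratios (vertical axis) of each counted translation gene by role in the 3 comparisons, with a bar at the median of each role and a box for all counted named genes (quartiles, with whiskers at the 5 and 95 percentiles). Dashed lines mark 2-fold; the medians for operated over sham are -0.16 in initiation, -0.44 in elongation and -0.41 in tRNA charging.

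The initiation gene with the lowest ratio in either lung, EIF3I, belongs to the eIF3 complex. EIF3I, a WD-repeat subunit, had log2 signals of 10.58 in the operated lung, 10.59 in the non-operated lung and 11.61 in sham. It was 2.05-fold lower in the operated lung and 2.03-fold lower in the non-operated lung, and with the median of all genes at 0 the ratios were -0.92 and -0.92, within 2-fold. EIF3H had signals of 12.45 and 12.33 in the operated and non-operated lungs against 13.11 in sham, and EIF3M had 11.78 and 11.72 against 12.46. The other probe set of EIF3M did not show this, at 9.64 and 9.19 against 9.22 in sham. EIF3K had ratios of -0.56 and -0.48 in the operated and non-operated lungs, EIF3D -0.39 and -0.26, EIF3E -0.25 and -0.42 and EIF3A, the largest subunit, -0.16 and -0.13. EIF3L and EIF3B lay close to 0 in the operated lung, at -0.04 and -0.09, and at -0.29 and 0.06 in the non-operated lung. All 9 measured eIF3 genes were below 0 in the operated lung and 8 of 9 in the non-operated lung, against 57.7% and 56.6% of all counted genes. With the median of all genes at 0 these counts were 7 and 8 of 9.

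The genes that bring the starter tRNA to the ribosome had medians nearer 0 than the eIF3 genes, though single genes lay far out. Their medians were -0.16 in the operated lung and -0.17 in the non-operated lung, against -0.39 and -0.42 for eIF3. Their interquartile ranges were 0.42 and 0.36, against 0.49 and 0.48. EIF2S1, the eIF2 subunit that stress kinases phosphorylate, had log2 signals of 11.49 in the operated lung, 11.39 in the non-operated lung and 11.95 in sham. Both lungs were below sham, by ratios of -0.45 and -0.56. EIF2S2, the beta subunit, had ratios of -0.16 and -0.26. EIF2D, which can deliver tRNA to the ribosome without eIF2, had signals of 7.81 in the operated lung, 8.15 in the non-operated lung and 8.62 in sham, close to the floor. EIF2A, an alternative initiation factor, had ratios of -0.36 and -0.17. EIF1 and EIF1AX, which guide the search for the start codon, had ratios of 0.04 and -0.02 in the operated lung and 0.13 and -0.13 in the non-operated lung, and EIF1B, a close relative of EIF1, had 0.33 and 0.17. The other probe set of EIF1AX was lower, at -0.42 in the operated lung and -0.49 in the non-operated lung. The second probe set of EIF1 was far from the first, with signals of 12.20, 12.44 and 11.05 in the operated, non-operated and sham lungs and ratios of 1.16 and 1.39 against sham. The size of the difference for EIF1 therefore depends on which probe set is read.

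The exchange factor eIF2B, which reloads eIF2 with GTP, had 4 measured subunit genes that did not move together. EIF2B1 had log2 signals of 8.76 in the operated lung, 8.60 in the non-operated lung and 9.45 in sham, so that both lungs lay lower. EIF2B2 had ratios of -0.33 and -0.77 in the operated and non-operated lungs, and EIF2B3 had signals of 8.79, 8.23 and 8.57 in the order above. EIF2B3 was thus above sham in the operated lung, at 0.22, and below it in the non-operated lung, at -0.33. EIF2B4, its delta subunit, had ratios of 0.12 and 0.17.

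Of the cap-binding group, EIF4E, which binds the mRNA cap, had log2 signals of 9.06 in the operated lung, 9.19 in the non-operated lung and 9.82 in sham. By representative probe sets it had the lowest ratios of this group, at -0.75 and -0.63. EIF4A1, the RNA helicase that unwinds the leader of the mRNA, had signals of 12.19 and 12.40 in the operated and non-operated lungs against 11.77 in sham. Its ratios of 0.42 and 0.63 were the highest in initiation by representative probe sets. Its relative EIF4A2 had ratios of -0.14 and -0.12, of which the signs turned under quantile normalization, to 0.13 and 0.04. EIF4B and EIF4H, which assist the helicase, had -0.47 and -0.33 in the operated lung and -0.50 and -0.24 in the non-operated lung. A second probe set of EIF4B was lower, at -0.71 in the operated and -0.73 in the non-operated lung. A second probe set of EIF4H lay on the other side, at 0.19 and 0.27. The scaffold genes lay near 0, with EIF4G1 at -0.15 and 0.02, EIF4G2 at -0.05 and 0.03 and EIF4G3 at -0.07 and -0.22. EIF5B, the GTPase that joins the subunits, had 0.10 and 0.01, and EIF6, which keeps free large subunits apart, had 0.10 and 0.13.

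EIF4EBP2, which binds eIF4E and blocks cap-dependent initiation, was by representative probe sets the translation gene with the highest ratio in the operated lung. Its representative probe set had log2 signals of 11.46 in the operated lung, 11.21 in the non-operated lung and 10.74 in sham, which gives ratios of 0.72 and 0.48. Of its 4 probe sets above the floor, 3 were above sham in either lung and 1 was below, with a range of -0.15 to 0.72 in the operated lung and of -0.26 to 0.97 in the non-operated lung. EIF4E2, a cap-binding protein that represses translation, had ratios of -0.32 and -0.53 by its representative probe set. Its other probe sets exceeded the floor only in the non-operated lung, where they were at least 0.13 and 0.40 above sham. EIF4A3, a core of the exon junction complex, had -0.57 and -0.57, and EEF1AKMT1, which methylates eEF1A, had -0.56 and -0.44. EIF4EBP1, the eEF2 kinase gene EEF2K and the eIF2 kinase genes were not analysed here.

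By their representative probe sets, all 5 elongation genes had signals below sham in both lungs, although EEF1B2 turned to 0.08 under quantile normalization in the operated lung. Of all counted genes, 57.7% lay below 0 in the operated lung and 56.6% in the non-operated lung. With the median of all genes at 0, the elongation median was -0.32 in the operated lung and -0.04, close to 0, in the non-operated lung. EIF5A, which helps the ribosome past difficult sequences such as runs of proline, had log2 signals of 11.49 in the operated lung, 11.59 in the non-operated lung and 12.11 in sham. Its other probe set lay on the same side and farther out, at 8.42, 8.86 and 9.66. EEF1G, a subunit of the exchange complex, had 13.09 and 13.23 in the operated and non-operated lungs against 13.66 in sham. EEF1D, the exchange factor's delta subunit, had 11.60 and 11.91 against 12.03, so that the operated lung lay apart from both other arrays. EEF1B2, its beta subunit, had 14.13 and 14.10 against 14.25, and these values are near the top of the arrays' range. EEF1A1, which carries charged tRNA to the ribosome, had 8.98 and 9.31 against 9.41 by its representative probe set. A second probe set of EEF1A1 gave 9.21, 8.98 and 9.12, above sham in the operated lung, and the remaining one lay above the floor only in sham. EEF2 and the release factor genes ETF1 and GSPT1 were not analysed here.

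Among the synthetases, the 6 measured ones of the multisynthetase complex were lower than sham in both lungs. The grouping was made after the values had been seen, from textbook knowledge of the complex, and it is a description only. RARS, which charges tRNA with arginine, had log2 signals of 10.88 in the operated lung, 10.96 in the non-operated lung and 11.81 in sham. MARS, for methionine, had 9.24 and 9.29 in the operated and non-operated lungs against 10.14 in sham. LARS, for leucine, had 10.38 and 10.24 against 11.02. On each of these genes both lungs lay close together and below sham. EPRS, for glutamate and proline, had 10.91 and 10.73 against 11.40, and its second probe set above the floor gave ratios of -0.48 and -0.76, on the same side.

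KARS, for lysine, had ratios of -0.41 and -0.54 in the operated and non-operated lungs, and DARS, for aspartate, had -0.63 and -0.50. A second probe set of DARS was at 8.66 in sham and below the floor in both lungs, so that it was at least 1.35 lower on the log2 scale in either. Over the 6 measured synthetases of the complex the median was -0.64 in the operated lung and -0.73 in the non-operated lung. In each lung 6 of these 6 lay below 0, against 57.7% and 56.6% of all genes. This held also with the median of all genes at 0 and under the other scalings tried. At 1.5-fold, 4 of the 6 were lower in either lung, against 21.7% of all genes in the operated and 21.4% in the non-operated lung.

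EEF1E1, a scaffold protein of that complex despite its name, had the lowest ratio of all translation genes in the non-operated lung by representative probe sets. Its log2 signals were 9.75 in the operated lung, 9.56 in the non-operated lung and 10.61 in sham, which is 1.81-fold and 2.06-fold lower. Its second probe set lay on the same side, at 7.81, 7.83 and 8.70. Of the other scaffold genes, which the symbol rule does not take, AIMP2 had log2 signals of 7.83 and 8.10 in the operated and non-operated lungs against 8.84 in sham. AIMP1 had ratios of -0.11 and -0.11, close to the medians of all counted genes, -0.11 and -0.10. The subunit genes of the phenylalanine enzyme, FARSA and FARSB, were at -0.48 and -0.76 in the operated lung and at -0.52 and -0.65 in the non-operated lung.

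The 7 other cytosolic synthetases that the symbol rule takes were mixed. GARS, for glycine, had log2 signals of 11.99 in the operated lung, 11.94 in the non-operated lung and 11.76 in sham, with ratios of 0.22 and 0.18. A second, dim probe set of GARS was at 0.05 in the operated and -0.11 in the non-operated lung. SARS, NARS, AARS and WARS, for serine, asparagine, alanine and tryptophan, had ratios from -0.07 to 0.06 in the operated lung and between -0.25 and 0.03 in the non-operated lung. These are of the representative probe sets. A second probe set of SARS was at -0.13 and -0.08. Another probe set of WARS lay above sham, at 0.40 and 0.44, and a further one was at -0.08 and 0.05. VARS, for valine, had signals of 7.59, 8.08 and 8.52 in the operated, non-operated and sham lungs. By representative probe sets its ratio of -0.94 was the lowest of any synthetase in the operated lung, where its signal was close to the floor. HARS, for histidine, had -0.56 and -0.67. The median of these 7 genes was -0.06 in the operated lung and -0.09 in the non-operated lung, and with the median of all genes at 0 it was 0.05 and 0.01. FARSA and FARSB, which are cytosolic too and outside the complex, are not in this median. Both lay lower than it in either lung.

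Mitochondrial synthetases were mostly dim. VARS2 and NARS2 lay below the floor on all 3 arrays, and EARS2 lay above it on the non-operated array alone, at 7.58. FARS2, for phenylalanine, had log2 signals of 8.54 in the operated lung, 8.48 in the non-operated lung and 8.06 in sham, with both lungs above sham by 0.48 and 0.42. IARS2 had ratios of -0.25 and -0.11 and WARS2 -0.07 and -0.18. With so few genes above the floor, no median for mitochondrial charging is read against that of the cytosolic genes.

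**Figure D4:**
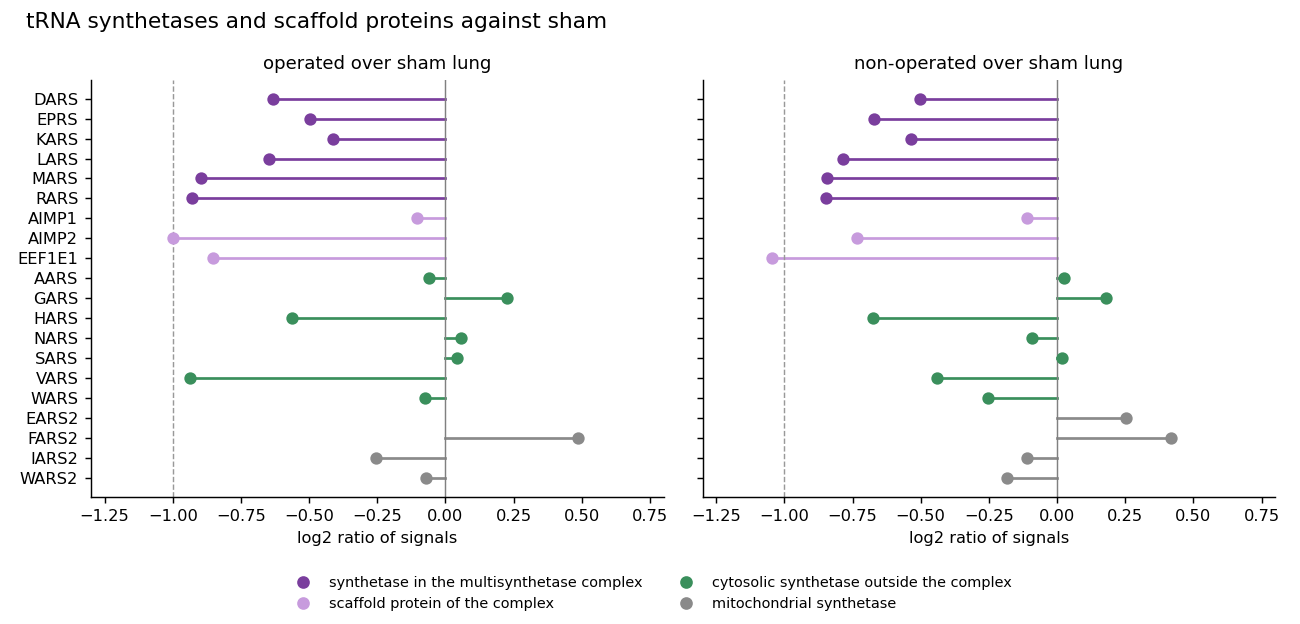
Log2 ratio (horizontal axis) of each counted synthetase that the symbol rule takes, and of the scaffold genes of the multisynthetase complex. The operated and non-operated lungs are set over sham, 1 array per group, with 2-fold as a dashed line. EARS2 has no value in the operated lung, and FARSA and FARSB are not drawn. The 6 measured synthetases of the complex lie between -0.93 and -0.41 in the operated lung, and the 7 other cytosolic ones drawn between -0.94 and 0.22.

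Between the operated and non-operated lungs, translation genes differed little. The median log2 ratio over 57 counted genes was 0.01, with 29 above 0 and 28 below, where the median over all 4944 counted named genes was -0.02. At 2-fold, 0 of 57 were higher, against 0.0607% of all genes, and 0 were lower, against 0.182%. At 1.5-fold, 0 were higher and 0 lower, against 1.31% and 2.1% of all genes. By representative probe sets, the highest ratio was 0.55, of EIF2B3, followed by 0.43, of EIF2B2. These are genes of the same exchange factor, of which EIF2B1 and EIF2B4 were at 0.16 and -0.05. The lowest ratio by representative probe sets was -0.49, of VARS, then -0.34, of EIF2D, both close to the floor in the operated lung. EEF1A1 and EEF1D were at -0.33 and -0.30, and a second probe set of EEF1A1 at 0.24. The pooled spread between probe sets of a gene was 0.21 here.

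Several probe sets of a gene did not always give the same side. Of 17 translation genes with several probe sets above the floor, 11 had every one on 1 side of 0 for operated over sham, and 12 of 18 for non-operated over sham. The widest range was that of EIF1 in both lungs, 1.11 in the operated and 1.26 in the non-operated lung. EIF4B, EPRS, EIF5A, EEF1E1 and DARS were among those with every counted probe set on the lower side in either lung.

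**Figure D5:**
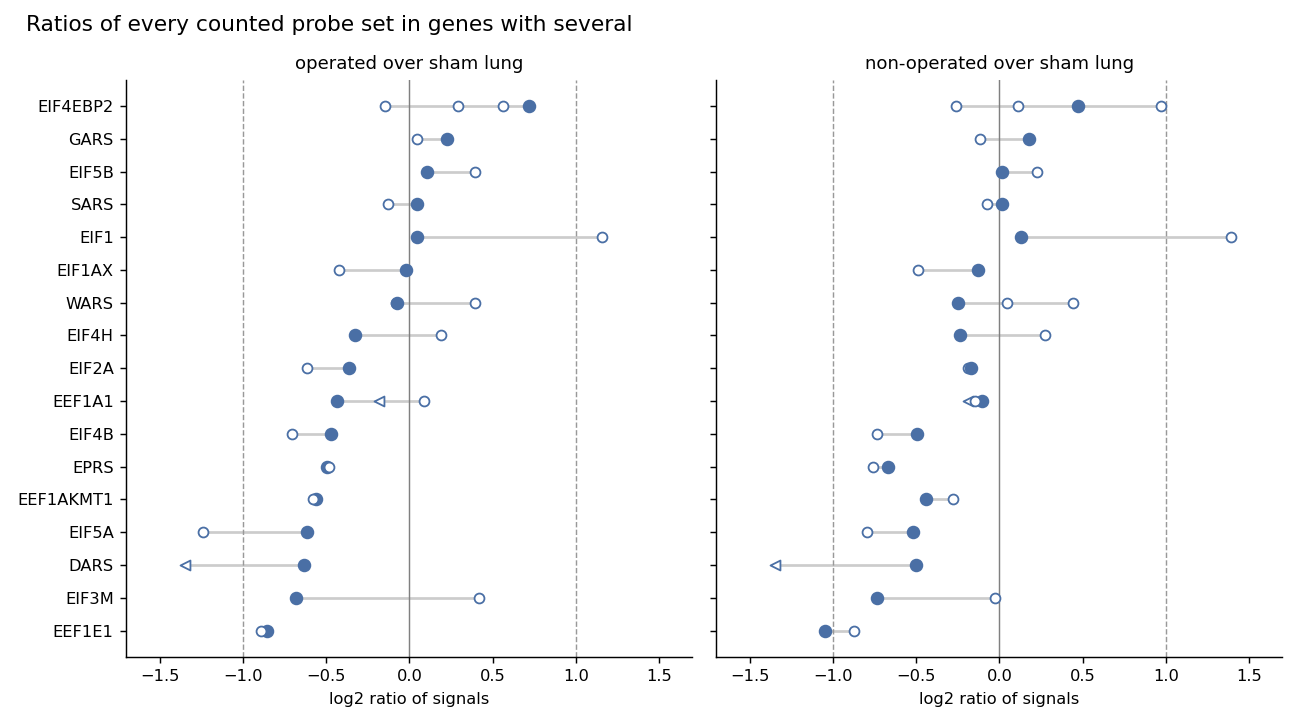
Log2 ratio (horizontal axis) of every counted probe set of the 17 translation genes that have several for operated over sham, shown for the operated and non-operated lung over sham; EIF4E2, the 18th in the non-operated lung, is not drawn. Filled points are representative probe sets, open points the others and triangles lower bounds; EIF1 runs from 0.04 to 1.16 in the operated lung.

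Related genes outside the symbol rule were read from lists chosen with earlier results of these data known. Of 7 measured translation factors of mitochondria, 6 were below 0 in the operated lung and 5 in the non-operated lung, with medians of -0.36 and -0.49, against 57.7% and 56.6% of all genes below 0. At 2-fold, 1 was lower in the operated lung and 0 in the non-operated lung, against 8.79% and 8.55% of all genes, so that these counts lie near the shares of all genes. That gene, MRRF, the mitochondrial ribosome recycling factor, had log2 signals of 7.75 in the operated lung, 8.27 in the non-operated lung and 8.85 in sham. TUFM, the mitochondrial counterpart of eEF1A, had ratios of -0.68 and -0.49. Of 5 measured cofactors of initiation and of eIF5A modification, 0 were beyond 2-fold in either lung. Of all genes, 8.65% were higher and 8.79% lower in the operated lung, and 8.96% and 8.55% in the non-operated lung. DHX29 had ratios of -0.15 in the operated and -0.91 in the non-operated lung, and 0.76 for operated over non-operated. DHPS had -0.22 and -0.57 against sham, and PABPC1, which binds the poly(A) tail, had -0.40 and -0.36.

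Genes of the integrated stress response, the programme downstream of eIF2 phosphorylation, were mixed in direction. Of 12 counted genes, 8 lay above 0 and 4 below in either lung, against 57.7% and 56.6% of all genes below 0. At 1.5-fold, 5 were higher and 3 lower in the operated lung, against 16.7% and 21.7% of all genes. In the non-operated lung 4 were higher and 2 lower, against 17.5% and 21.4%. Of 12 counted genes of 15 measured, 4 were at least 2-fold higher in the operated lung and 2 in the non-operated lung, and 0 were lower in either, against 8.65% and 8.96% of all genes higher and 8.79% and 8.55% lower. ATF3, a stress-induced transcription factor, had log2 signals of 11.25 in the operated lung, 11.26 in the non-operated lung and 9.47 in sham. CEBPB, another transcription factor, had 13.07 and 13.03 in the operated and non-operated lungs against 11.53 in sham, and PPP1R15A, which directs the phosphatase to eIF2, had 8.67 and 8.20 against 7.38. Named beyond the 3 with the largest ratios, ATF4 itself had ratios of 0.27 and 0.48. Chosen after their values were seen, ASNS, the asparagine synthetase and a target of ATF4, had signals of 9.24 and 9.29 against 10.18, on the lower side with MTHFD2 at -0.64 and -0.74. Of 8 measured mTORC1 and MNK signalling genes, 6 were counted. In the operated lung 0 were beyond 2-fold, against 8.65% of all genes higher and 8.79% lower. In the non-operated lung 0 were lower, against 8.55% of all genes, and 1 was higher, against 8.96%. That gene was SESN1, an inhibitor of mTORC1, with ratios of 0.90 and 1.35.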

How the data were processed

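Total RNA was extracted with TRIZOL and labelled with biotin through a 3' in vitro transcription kit, per the labels' protocols. The deposited values are log2 signals, and per the submitters' processing notes the authors made them with MAS5, which scales each array and condenses a probe set into 1 signal; the sources used here do not give its version, scaling target or detection calls. No further scaling was applied. Of the probe sets, 64 controls were left out, and 10069 had 1 gene in the platform annotation; 6 probe sets that name a translation gene beside another gene were not used. Of 59 member genes, 58 matched RefSeq by gene identifier. Floor, ratios and medians were computed with Python 3.11.15 and pandas 2.3.3, and the ratio step was tested on simulated data. No test was possible with 1 array per group, which limits the precision. All members may be named; values on each array are given for genes beyond 2-fold, for the 3 highest and 3 lowest of each role in the operated lung with probe sets on the same side, and for genes that define a step. From each further list up to 3 genes with the largest ratios are named; the remaining synthetase partner, ATF4, ASNS and MTHFD2 were named beyond this, after their values were seen. Members, roles and lists were chosen with earlier results of these data known. The alternatives were 3 scalings, 3 floors, a pseudocount of 50, 2 treatments of probe sets and a 1.5-fold threshold; counting only genes above the floor on all 3 arrays, and the medians inside and outside the multisynthetase complex, were added after the data had been seen.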

Additional observations from a re-analysis of the deposited data

How the results depend on the processing

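The median log2 ratio of the translation genes ran from -0.33 to -0.21 for operated over sham, from -0.27 to -0.15 for non-operated over sham and from -0.03 to 0.02 for operated over non-operated lung over the settings tried. Over the same settings the median ran from -0.17 to -0.05 in initiation, -0.44 to -0.32 in elongation and -0.45 to -0.30 in tRNA charging for operated over sham, and for non-operated over sham from -0.27 to -0.14, -0.19 to -0.04 and -0.54 to -0.18 in the same order of roles. For the measured synthetases of the multisynthetase complex it lay between -0.77 and -0.53 in the operated lung and between -0.85 and -0.63 in the non-operated lung. Counts near the 2-fold threshold moved. The count of lower genes in the operated lung was 1 as deposited, 0 with the median of all genes at 0, 3 with no floor, where the dim genes NARS2 and VARS2 enter, 2 at a floor on the 25th percentile, 2 after adding the pseudocount and 2 with averages over each gene's probe sets. With every probe set on its own it was 3, and 1 was higher in each lung against sham. In the non-operated lung it was 2 as deposited and 0 with the median of all genes at 0, where EIF3I was at -0.92 and EEF1E1 at -0.94. With no floor 2 genes were lower in the operated than in the non-operated lung, against 0 as deposited. At 1.5-fold, 13 and 12 genes were lower and 1 and 1 higher in the operated and non-operated lung against sham. Counting only genes above the floor on all 3 arrays changed no count of translation genes beyond 2-fold. No paired analysis was possible because each group holds 1 array. Signals near the floor limit what EIF2D, VARS and the mitochondrial synthetases can show.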
